A study of Homo sapiens with 10 samples.

Results

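The 41 genes described here drive, mark or regulate the cell division cycle, and they were taken by symbol from the 42335 symbols of the deposited expression table. They fall into 11 genes of G1 and G1/S entry, 11 of S phase, 15 of G2 and mitosis, and 4 that are called the inhibitor group: the CDK inhibitors CDKN1A, CDKN1B and CDKN2C, and MDM2, whose product restrains p53 and not the cycle itself. Expression was measured by bulk RNA sequencing in 10 libraries from H9, an established line of human embryonic stem cells, as it was differentiated toward neural cells. The control line (Ctrl) was wild-type H9, and the other line carried the genotype spelled SOX1-OT V1 PAKI in the labels (V1PAKI), whose last word the labels do not explain. Each line gave 1 library at each of 5 stages, named d0, d4, d10, d16D and d16V. The d0 libraries were labelled hESC, and all others hESC-derived NP cell. Embryoid bodies were grown in suspension without FGF-2, changed to a neural medium with N2 and heparin at day 4, and later attached. Cells for ventral telencephalon received Shh protein and SAG, a hedgehog pathway agonist, from day 10. The labels do not spell out D and V, do not say whether V1PAKI is a single clone, and name no batches. The title of the study presents SOX1-OT V1 as a decoy of HDAC10 that acts on neuronal differentiation through SOX1.

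Cells enter the cycle when D-type cyclins with CDK4 and CDK6, then E-type cyclins with CDK2, inactivate the RB family and release E2F factors, which switch on the genes of DNA replication. Genes of mitosis follow later under the MuvB complex, B-MYB and FOXM1. Inhibitor proteins of the CIP/KIP family (encoded by CDKN1A, CDKN1B and CDKN1C) and the INK4 family (among them CDKN2C) hold the kinases back. Pluripotent stem cells are known for a short G1 phase, and neural progenitors for a G1 phase that lengthens as differentiation proceeds.

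The members differ in the promoter elements that go with these programmes, so the stretches before the transcription start are shown for members of the G2/M, G1/S and S groups. The elements searched, on both strands, were TTTGAA, the core of the cell cycle genes homology region (CHR) bound by MuvB, CCAAT, the box bound by NF-Y, and the E2F cores TTTCCCGC, TTTCGCGC and TTTGGCGC. Promoter windows of 300 bases (250 before and 50 after the RefSeq start, GRCh38.p14) matched 33 of the 41 members. For 9 members more than 1 window was listed, and only the first was used. TTTGAA was present in 9 of 13 G2/M windows, 1 of 9 S windows, 0 of 7 G1/S windows and 0 of 4 inhibitor windows, against 15.4% of all 27305 promoters. CCAAT was present in 12 of 13 G2/M, 7 of 9 S, 2 of 7 G1/S and 2 of 4 inhibitor windows, against 35.7% of all. An E2F core was present in 7 of 9 S, 3 of 7 G1/S, 2 of 13 G2/M and 1 of 4 inhibitor windows, against 2.79% of all. The 7 stretches below are the 150 bases before the start, 5′ to 3′ on the gene's strand, with the searched elements in capitals. For BUB1 the last 51 bases, which lie in an exon of its GENCODE v29 model, are left off. Up to 30 bases of a gene's own exons were kept, which left 26 in CDC20, 19 in E2F1 and 4 in PCNA. The 7 stretches lie at chr10:92592980-92593129 (KIF11, plus strand), chr1:214603045-214603194 (CENPF, plus), chr1:43358831-43358980 (CDC20, plus), chr2:110678115-110678213 (BUB1, minus), chr20:33686386-33686535 (E2F1, minus), chr2:135876444-135876593 (MCM6, minus) and chr20:5126623-5126772 (PCNA, minus).
KIF11: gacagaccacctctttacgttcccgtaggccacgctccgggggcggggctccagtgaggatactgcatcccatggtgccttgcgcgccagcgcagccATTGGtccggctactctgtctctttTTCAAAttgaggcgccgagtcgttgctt
CENPF: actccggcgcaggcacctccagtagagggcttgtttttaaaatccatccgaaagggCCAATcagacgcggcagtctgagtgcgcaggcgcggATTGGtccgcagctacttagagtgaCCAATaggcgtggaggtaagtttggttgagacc
CDC20: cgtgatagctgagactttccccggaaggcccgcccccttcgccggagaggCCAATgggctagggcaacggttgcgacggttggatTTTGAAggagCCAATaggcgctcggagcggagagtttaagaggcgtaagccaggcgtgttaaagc
BUB1: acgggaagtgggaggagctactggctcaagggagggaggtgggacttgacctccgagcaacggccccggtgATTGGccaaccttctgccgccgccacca
E2F1: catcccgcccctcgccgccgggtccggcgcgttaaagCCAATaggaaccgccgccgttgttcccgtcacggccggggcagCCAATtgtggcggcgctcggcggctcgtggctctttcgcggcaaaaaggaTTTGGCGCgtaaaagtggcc
MCM6: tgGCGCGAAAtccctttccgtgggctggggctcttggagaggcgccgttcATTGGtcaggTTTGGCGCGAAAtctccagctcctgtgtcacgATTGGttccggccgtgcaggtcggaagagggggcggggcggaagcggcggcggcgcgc
PCNA: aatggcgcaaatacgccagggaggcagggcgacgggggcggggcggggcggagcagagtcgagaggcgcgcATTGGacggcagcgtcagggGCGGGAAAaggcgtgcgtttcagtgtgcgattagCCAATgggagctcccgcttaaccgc
In MCM6 a TTTGGCGC and a GCGCGAAA, the reverse complement of TTTCGCGC, overlap. The TTTGAA counted for CENPF is in its 300-base window but not in the stretch shown. A match is a description of these letters and not a binding site.

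Values are FPKM, fragment counts divided by transcript length and by library size, so levels of different genes can be set side by side. They summed to between 200509 and 256270 per library, and the sequencing depth is unknown. SOX1-OT, the gene named in the V1PAKI genotype, was listed at 0 in both d0 libraries and stood at 0.212 FPKM in V1PAKI against 1.87 in Ctrl at d16D, and at 1.22 against 3.51 at d16V. The 8 pluripotency markers summed to between 1355 and 1652 FPKM at d0 and d4 and to between 146 and 296 at day 16, while 10 neural progenitor markers summed to 92.5 and 133 FPKM at d0 and to between 365 and 783 at day 16. The V1PAKI d16D library stood apart. It held the highest sums of 10 mesenchyme genes (1138 FPKM, against 189 in Ctrl d16D) and of 10 endoderm and liver genes (2744 against 486), with all 10 genes of each list at 1 FPKM or more and none at 0, and the lowest neural progenitor sum of the 4 day 16 libraries (365). Ctrl d10 also stood apart, with 821 FPKM of the mesenchyme genes and 489 of 9 trophoblast and amnion genes. The V1PAKI d16V library held the lowest mesenchyme sum (17.7). By the median log2(FPKM + 1) of that list it lay at 1.35, above Ctrl d0 (0.286) and V1PAKI d0 (0.295). Results that rest on these libraries are given with those sums, and in bulk RNA fewer cells of a type and less RNA per cell cannot be told apart.

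From d0 to day 16 (both arms), the replication licensing genes CDC6, MCM3, MCM4 and MCM6, the cyclin CCNE1 and the mitotic genes CCNB1, AURKA, BUB1 and BUB1B fell, while CCND1, CDK2, TYMS and the inhibitor CDKN1B rose. These 13 of the 40 tested members (32.5%) passed an adjusted p of 0.05 in limma, which is close to the 32.4% of all 15779 tested genes; 4 members rose (17.4% of all genes did) and 9 fell (15.1% of all genes did). The median log2 change was 0.37 over the G1/S members, -0.22 over the S members and -0.38 over the G2/M members, beside 0.07 over all tested genes. Rescaling FPKM to a common library sum (TPM) moved the median of all genes up by 0.21, which left the S median at -0.02 and the G2/M median at -0.18 and gave 15 calls, 9 up and 6 down. The called members were 2 up and 2 down of 11 in G1/S, 1 up and 3 down of 11 in S, 0 up and 4 down of 15 in G2/M, and 1 up of the 3 tested in the inhibitor group. The exception to testing was CDKN2C, which reached 1 FPKM in 1 library only. CCNE2, at 0.55 to 1.64 FPKM, passed the filter only through d10 and day 16 libraries. Without V1PAKI d16D, 11 members were called, 5 up and 6 down; without Ctrl d0, 2 were.

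**Figure D1:**
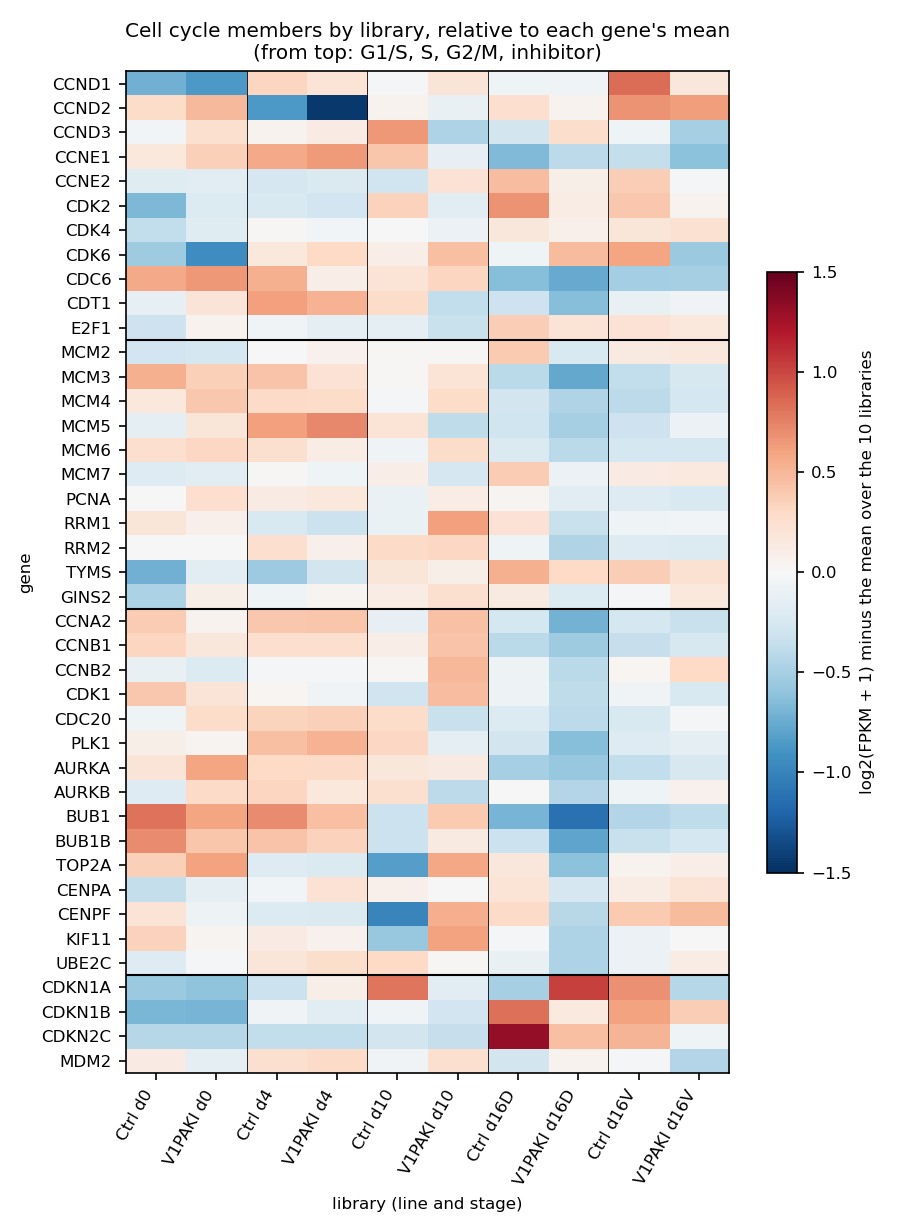
Level of the 41 members (rows, in 4 groups) in the 10 libraries (columns), as log2(FPKM + 1) minus each gene's mean over the libraries; red is above and blue below the mean. BUB1, BUB1B and CDC6 are red at d0 and blue at day 16, CDKN1B is blue at d0 and red at day 16, and most G2/M genes are bluest in V1PAKI d16D.

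**Figure D2:**
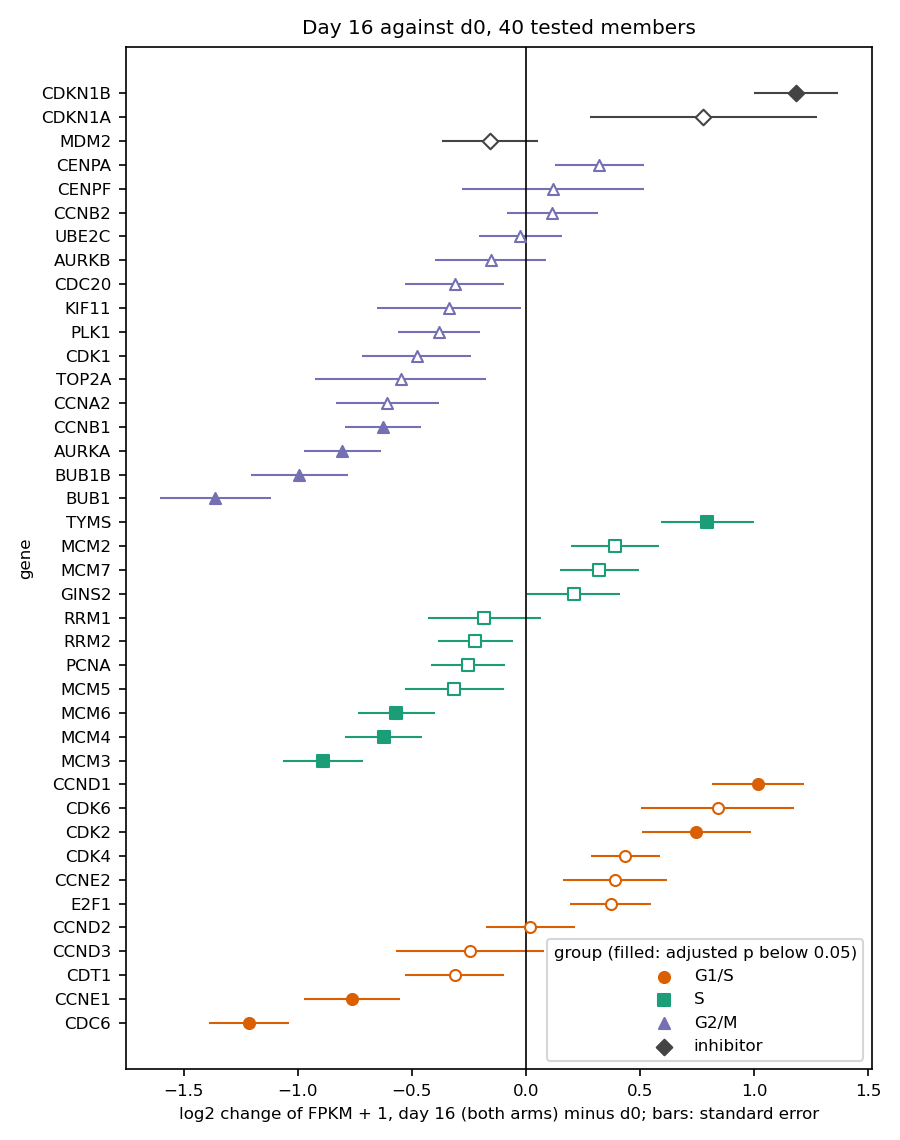
Log2 change of FPKM + 1 from d0 to day 16 for the 40 tested members, with the standard error of the limma fit; filled symbols have an adjusted p below 0.05. Most G2/M members lie left of 0, led by BUB1 at -1.36, and CDKN1B at 1.18 lies farthest to the right.

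Among the D-type cyclins, which couple growth signals to CDK4 and CDK6, each gene followed its own course. CCND1 stood at 23.9, 50.2, 39.6, 38.1 and 72.4 FPKM in Ctrl at d0, d4, d10, d16D and d16V, and at 21.5, 46.1, 45.8, 38.4 and 45.2 in V1PAKI. Both d0 libraries were below all 8 later ones, and the rise to day 16 was 1.02 on the log2 scale (SE 0.20, limma adjusted p = 0.00897). At d4 the CCND1 difference from d0 was already 1.05 (SE 0.23, adjusted p = 0.108), which did not pass. CCND2 stood at 15.2, 6.33, 12.8, 14.9 and 20.2 FPKM in Ctrl and at 17.7, 3.87, 11.4, 12.8 and 19.7 in V1PAKI, in the same order of stages. It was lowest at d4 in both lines. Its fall of 1.54 from d0 to d4 (SE 0.23, limma adjusted p = 0.0382) made it the only called member of 40 in that comparison, where 0.818% of all genes were called; its day 16 level was within 0.02 of d0 on the log2 scale (SE 0.20). CCND3 stayed low, at 3.20, 3.49, 5.76, 2.56 and 3.13 FPKM in Ctrl and 4.11, 3.71, 2.14, 4.19 and 2.05 in V1PAKI, so that Ctrl was highest at d10 and V1PAKI at d16D. Exons of CCND1 overlap those of LTO1, and exons of CCND2 those of CCND2-AS1, on the opposite strand, and the use of strand in counting is not given in the sources used here.

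Of the kinases and cyclins that act next, CDK2 rose and CCNE1 fell. CDK2, the partner of E- and A-type cyclins, stood at 8.13, 11.5, 17.5, 22.2 and 18.3 FPKM in Ctrl and at 11.7, 10.9, 12.0, 14.7 and 14.1 in V1PAKI from d0 to d16V. The day 16 change was 1.21 in Ctrl and 0.28 in V1PAKI, 0.75 in the fit (SE 0.24, limma adjusted p = 0.0462), and the call was lost without Ctrl d0, Ctrl d4 or either Ctrl day 16 library, among others; its exons overlap PMEL on the opposite strand. CCNE1 stood at 12.7, 17.2, 15.4, 6.76 and 8.61 FPKM in Ctrl and 14.8, 18.2, 10.3, 8.33 and 7.04 in V1PAKI. All 4 day 16 libraries were below the 6 earlier ones, and the change was -0.76 (SE 0.21, limma adjusted p = 0.0284). CDK4 ranged from 40.4 to 61.3 FPKM (change 0.43, SE 0.15, adjusted p = 0.0618) and CDK6 from 2.17 to 8.10 (0.84, SE 0.34, adjusted p = 0.0912), both lowest at d0 within each line and neither past the threshold. E2F1, the activator of the replication genes, ranged from 13.5 to 22.7 FPKM (0.37, SE 0.18, adjusted p = 0.143).

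The loading factors of the replicative helicase split. CDC6, which helps load MCM2-7 onto origins, stood at 21.2, 20.6, 16.1, 8.58 and 9.49 FPKM in Ctrl and at 22.5, 15.0, 17.7, 7.81 and 9.60 in V1PAKI. The day 16 libraries lay below all others, and the fall of 1.21 (SE 0.18, limma adjusted p = 0.00300) kept its call in all 19 alternative analyses, the only called member that did. CDT1, its partner in loading, was highest at d4 (37.6 and 35.4 FPKM in Ctrl and V1PAKI) and lay between 15.3 and 23.3 at day 16, against 22.3 and 27.9 at d0 (-0.31, SE 0.22, adjusted p = 0.297).

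The helicase subunits themselves, MCM2 to MCM7, did not move together even though they form 1 complex. MCM3 stood at 132, 122, 91.7, 68.3 and 69.9 FPKM in Ctrl and at 116, 105, 104, 52.8 and 76.4 in V1PAKI, with the 4 day 16 libraries lowest, and fell by 0.89 (SE 0.18, limma adjusted p = 0.00862). MCM4 stood at 56.4, 62.0, 49.4, 41.6 and 38.3 FPKM in Ctrl and 67.0, 61.4, 61.5, 36.5 and 42.0 in V1PAKI. MCM6 stood at 50.1, 49.5, 40.2, 36.0 and 34.7 FPKM in Ctrl and 52.2, 45.3, 50.9, 31.5 and 34.7 in V1PAKI. Both were again lowest in the 4 day 16 libraries, and fell by 0.62 (SE 0.17, adjusted p = 0.0264) and 0.57 (SE 0.17, adjusted p = 0.0367) in limma. MCM5 peaked at d4 (40.3 and 43.4 FPKM) and ended at -0.32 (SE 0.22, adjusted p = 0.293). MCM2 and MCM7 differed from d0 by 0.39 (SE 0.19) and 0.32 (SE 0.17) in the other direction, without passing (adjusted p = 0.158 and 0.190). Exons of MCM2 overlap those of TPRA1 and AC023593.1, and exons of MCM7 those of AP4M1, on the opposite strand. MCM3, MCM4, MCM5 and MCM6 have no such overlap, and the part of the overlaps in this split was not tested.

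Of the genes of nucleotide supply and the replication fork, TYMS rose. TYMS, which makes thymidylate, stood at 24.9, 28.1, 47.4, 60.3 and 53.9 FPKM in Ctrl and at 36.9, 34.1, 44.2, 51.2 and 48.6 in V1PAKI. Both d0 and both d4 libraries were below the other 6, and the day 16 change was 0.79 (SE 0.20, limma adjusted p = 0.0228), 1.16 in Ctrl and 0.42 in V1PAKI. Its exons overlap ENOSF1 and TYMSOS on the opposite strand. The ribonucleotide reductase subunits RRM1 (27.4 to 54.1 FPKM) and RRM2 (10.0 to 17.6), the sliding clamp PCNA (109 to 153) and the GINS subunit GINS2 (12.7 to 21.6) did not pass, with changes between -0.25 and 0.21.

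In the G2/M group the spindle checkpoint kinases changed most. BUB1 stood at 38.3, 35.4, 16.9, 12.8 and 15.5 FPKM in Ctrl and at 32.6, 29.6, 28.2, 9.31 and 16.1 in V1PAKI. Day 16 lay below d0 and d4 in both lines, with a fall of 1.36 (2.57-fold on the FPKM + 1 scale; SE 0.24, limma adjusted p = 0.00619), nearly equal in Ctrl (-1.38) and V1PAKI (-1.34). BUB1B, which encodes BUBR1, stood at 45.4, 37.0, 21.6, 21.7 and 21.5 FPKM in Ctrl and 36.9, 34.9, 30.04, 15.4 and 22.5 in V1PAKI, and fell by 0.99 (SE 0.21, adjusted p = 0.0118). In Ctrl the lower level of both genes was already present at d10, and in V1PAKI it was not; the d10 libraries of the lines differed with base composition, as given with the line comparison. AURKA, the kinase of spindle poles, stood at 23.8, 25.8, 23.4, 14.4 and 15.9 FPKM in Ctrl and 31.7, 25.6, 22.9, 13.7 and 17.4 in V1PAKI, and fell by 0.80 (SE 0.17, adjusted p = 0.0108). CCNB1, the mitotic cyclin, stood at 89.2, 84.4, 76.1, 53.5 and 55.6 FPKM in Ctrl and 79.7, 84.4, 95.4, 48.5 and 60.1 in V1PAKI, and fell by 0.63 (SE 0.17, adjusted p = 0.0256). For AURKA and CCNB1 the 4 day 16 libraries lay below the 6 earlier ones. Exons of BUB1B overlap those of BUB1B-PAK6 on the same strand.

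The other 11 G2/M members did not pass, with 8 below 0 and 3 above. CCNA2 (28.3 to 63.8 FPKM; -0.61, SE 0.22, adjusted p = 0.0723) and CDK1, the mitotic kinase (19.5 to 35.7; -0.48, SE 0.24, adjusted p = 0.161), lay below 0, as did 6 others. PLK1 lay between 15.3 and 35.5 FPKM (-0.38), the anaphase activator CDC20 between 47.3 and 80.6 (-0.31), the kinesin KIF11 between 13.6 and 31.7 (-0.34), the topoisomerase TOP2A between 46.7 and 127 (-0.55), AURKB between 21.0 and 36.3 (-0.16) and the ubiquitin-conjugating enzyme UBE2C between 51.4 and 87.9 (-0.02). The 3 above 0 were CENPA, the centromeric histone (0.32, SE 0.19), CENPF (0.12, SE 0.40) and CCNB2 (0.11, SE 0.20). So within a group that shares a phase, changes ran from -1.36 to 0.32. Exons of CENPA overlap those of SLC35F6 on the same strand.

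Of the inhibitor group CDKN1B, which encodes p27, rose. It stood at 10.1, 16.2, 16.3, 30.8 and 26.1 FPKM in Ctrl and at 10.0, 14.9, 13.7, 18.8 and 22.1 in V1PAKI. All 4 day 16 libraries were above the 6 earlier ones, and the rise was 1.18 (2.27-fold on the FPKM + 1 scale; SE 0.18, limma adjusted p = 0.00379), 1.41 in Ctrl and 0.96 in V1PAKI. CDKN2C, an INK4 gene, was listed at 0 in both d0 libraries, stood at 0.04 and 0.04 FPKM at d4 and at 0.11 and 0.06 at d10 in Ctrl and V1PAKI, and at 2.36 and 0.84 at d16D and 0.91 and 0.28 at d16V. Its highest value was thus in Ctrl d16D, the library with the highest sum of 14 neuron markers (295 FPKM, against 128 in V1PAKI d16D). The order did not hold at d16V: the neuron sum was 196 FPKM in Ctrl and 168 in V1PAKI. V1PAKI d16V thus had less CDKN2C than V1PAKI d16D at a higher neuron sum. CDKN2C was not tested. MDM2, the ubiquitin ligase of p53, ranged from 3.94 to 7.19 FPKM (-0.16, SE 0.21, adjusted p = 0.587).

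CDKN1A, which encodes p21, had no common course in the lines. It stood at 5.15, 6.23, 14.7, 5.40 and 13.5 FPKM in Ctrl and at 4.94, 8.58, 7.02, 17.5 and 5.70 in V1PAKI from d0 to d16V. The 3 highest libraries were V1PAKI d16D, Ctrl d10 and Ctrl d16V. They were also the 3 with the highest mesenchyme sums (1138, 821 and 309 FPKM, the other 7 between 17.7 and 213). By the median log2(FPKM + 1) of the mesenchyme list the order differed. Ctrl d10 (5.32), V1PAKI d16D (4.77) and V1PAKI d10 (4.08, with CDKN1A at 7.02 FPKM) were highest, and Ctrl d16V lay at 3.24. The part of mesenchyme cells in the CDKN1A level was not tested. From d10 to d16D it differed by -1.30 in Ctrl and by 1.20 in V1PAKI. Its day 16 change was 0.78 (SE 0.50, limma adjusted p = 0.263), and its exons overlap DINOL on the opposite strand.

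**Figure D3:**
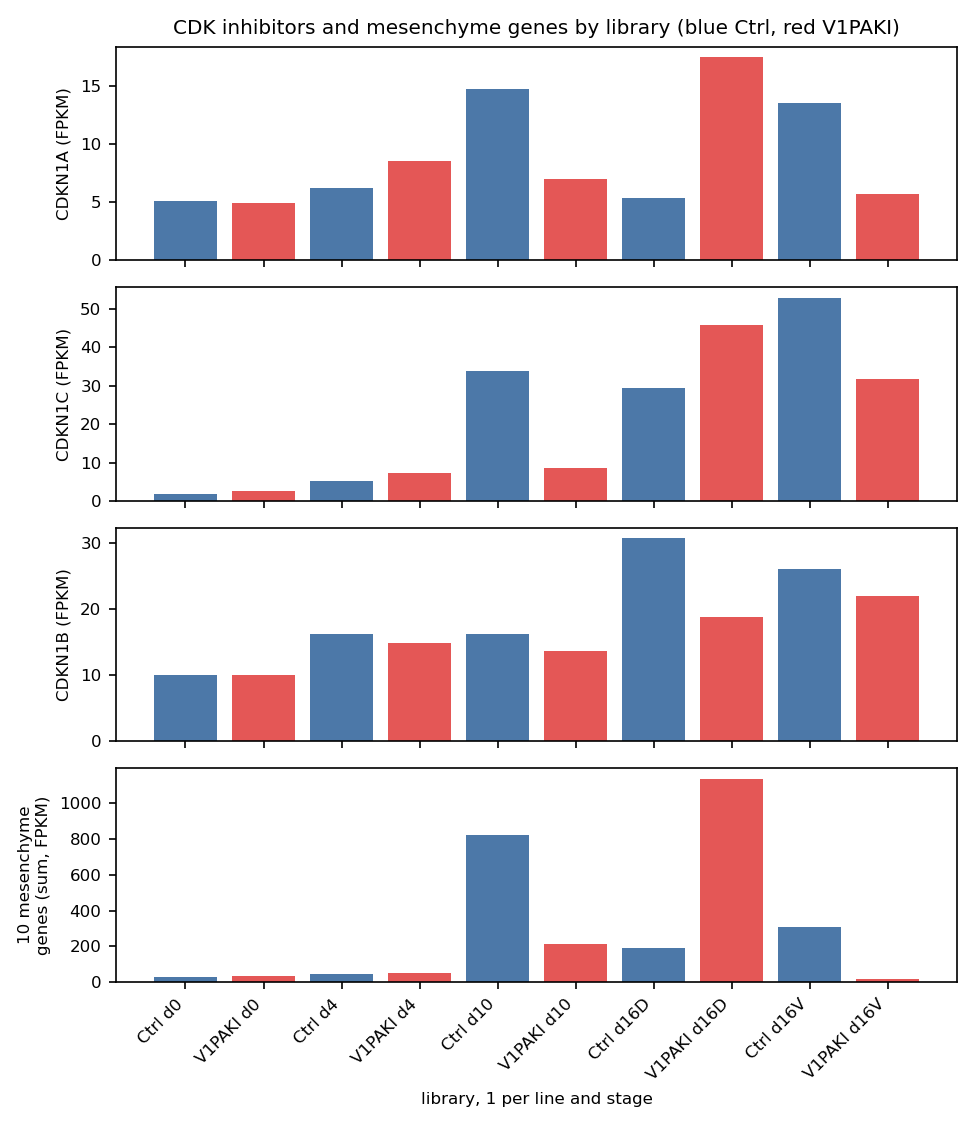
FPKM of CDKN1A, CDKN1C and CDKN1B and the summed FPKM of 10 mesenchyme genes in each of the 10 libraries (bars from 0; blue Ctrl, red V1PAKI; 1 library per bar, so no error bars). CDKN1A and the mesenchyme sum are highest in V1PAKI d16D (17.5 and 1138 FPKM), while CDKN1B is highest in Ctrl d16D (30.8 FPKM).

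Other genes of the pathway, from lists that hold none of the 41 members, also moved in both directions from d0 to day 16; beside the 32.4% called of all genes, the share was 75% of the other CDK inhibitors, 10% of E2F, RB and DREAM genes, 15.4% of other S genes, 17.9% of other G2/M genes and 45% of p53 targets. Of the other CDK inhibitors, 3 of 4 tested were called: CDKN1C (p57) rose by 3.66 (SE 0.49, limma adjusted p = 0.00216), CDKN2D rose by 1.37 and CDKN3, a CDK phosphatase, fell by 0.63. CDKN1C stood at 1.74, 5.10, 33.8, 29.5 and 52.99 FPKM in Ctrl and 2.66, 7.33, 8.64, 45.9 and 31.8 in V1PAKI. Its d10 value differed between the lines as the mesenchyme sum did (821 and 213 FPKM), and so did its d16D and d16V values. Its levels did not rank with that sum: the highest, in Ctrl d16V, came with a sum of 309 FPKM. V1PAKI d16V had the lowest sum (17.7) beside 31.8 FPKM of CDKN1C. The part of mesenchyme cells in the CDKN1C level was not tested. In the list of E2F, RB and DREAM genes 2 of 20 rose, TFDP2 by 1.08 and E2F2 by 0.96, and none fell. Of 26 other S phase genes 2 rose and 2 fell, with UHRF1, a reader of replicated DNA methylation, up by 1.34 and the GINS subunit GINS1 and the origin factor ORC1 at -0.83 and -0.82. Of 28 other G2/M genes 1 rose (NUSAP1, 0.88) and 4 fell, led by HMMR at -1.24 and the checkpoint protein MAD2L1 at -0.72. The medians of those S and G2/M lists, -0.17 and -0.29, lay on the same side as those of the members. Of 20 tested p53 targets 5 rose and 4 fell; the largest were PMAIP1 (-3.71), BTG2 (2.23), RRM2B (-2.12) and BBC3 (1.31).

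Between neighbouring stages few members passed. From d4 to d10, 0 of 40 were called in limma (1.44% of all genes were called); 4 members had an unadjusted p below 0.05, as did 15.2% of all genes. The largest difference was CCND2 at 1.13 (SE 0.23, adjusted p = 0.0604), back toward its d0 level. Among the other inhibitors CDKN2B (p15) rose by 1.61 (SE 0.27, adjusted p = 0.0405) at this step. The steps from d10 to d16D and to d16V share their d10 libraries: 0 of 40 were called in each by limma, where 0.932% and 0.811% of all genes were. An unadjusted p below 0.05 was found for 12 and 8 of the 40, and for 17% and 19.9% of all genes. For d10 to d16D, 14 of 15 G2/M members were below 0, with a median of -0.44, which was -0.13 in Ctrl and -0.90 in V1PAKI, beside 0.03 over all genes; 13 of 15 were below 0 under TPM and 12 with a GC and length trend removed. In V1PAKI the mesenchyme sum went from 213 to 1138 FPKM and the endoderm and liver sum from 41.8 to 2744 over this step. In Ctrl these sums went from 821 to 189 and from 257 to 486. The endoderm and liver list median, as log2(FPKM + 1), went from 3.41 to 2.44 in Ctrl and from 1.43 to 3.84 in V1PAKI. The part of these lists and of the d10 base composition, given with the line comparison, in the G2/M median was not tested. For d10 to d16V the G2/M median was -0.15, -0.12 in Ctrl and -0.38 in V1PAKI, beside 0.04 over all genes. Here 11 of 15 G2/M members were below 0. That count was 8 under TPM, 9 with the GC and length trend removed and 12 under median-of-ratios scaling.

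Between the arms at day 16, all 15 G2/M members were higher at d16V than at d16D in the fit, though none of 40 members was called (0.361% of all genes were); 1 member had an unadjusted p below 0.05, as did 5.34% of all genes. The G2/M median was 0.23, beside 0.01 over all genes. Within the lines it was 0.02 in Ctrl, where not all 15 were higher, and 0.50 in V1PAKI. The shift thus lay mainly in V1PAKI, whose d16D library also held the high mesenchyme and endoderm sums. Their part in the shift was not tested, and with 1 library per line and arm it cannot be placed in either arm.

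Comparing the lines over the 5 stages, 0 of 40 members passed for genotype in limma (0.019% of all genes were called). An unadjusted p below 0.05 was found for 0 of the 40 and for 2.47% of all genes. Averaged over stages, all 11 G1/S members were lower in V1PAKI, by little (10 of 11 under TPM and median-of-ratios scaling, where CDK4 turned, and 9 with the GC and length trend removed). The median was -0.11 and the largest difference -0.20, beside a median of -0.02 over all genes. The stages did not share this sign: at d0, 9 of 11 were higher in V1PAKI (median 0.20, beside 0.11 over all genes). That count at d0 was 7 under TPM and 6 under median-of-ratios scaling. Over the stages, the S and G2/M medians were -0.0024 and -0.0040, and the signs of these 2 turned under TPM (0.01 and 0.01) and under median-of-ratios scaling (0.02 and 0.02).

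At single stages the lines have 1 library each, so differences have no replicate check, and members were counted where the log2 difference was 1 or more in either direction. No member did at d0 or d4, where 3.73% (higher in V1PAKI) and 0.82% (lower) of all genes did at d0, and 0.797% and 0.857% at d4. The 4 group medians lay between -0.09 and 0.20 at d0 and between -0.07 and 0.02 at d4.

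**Figure D4:**
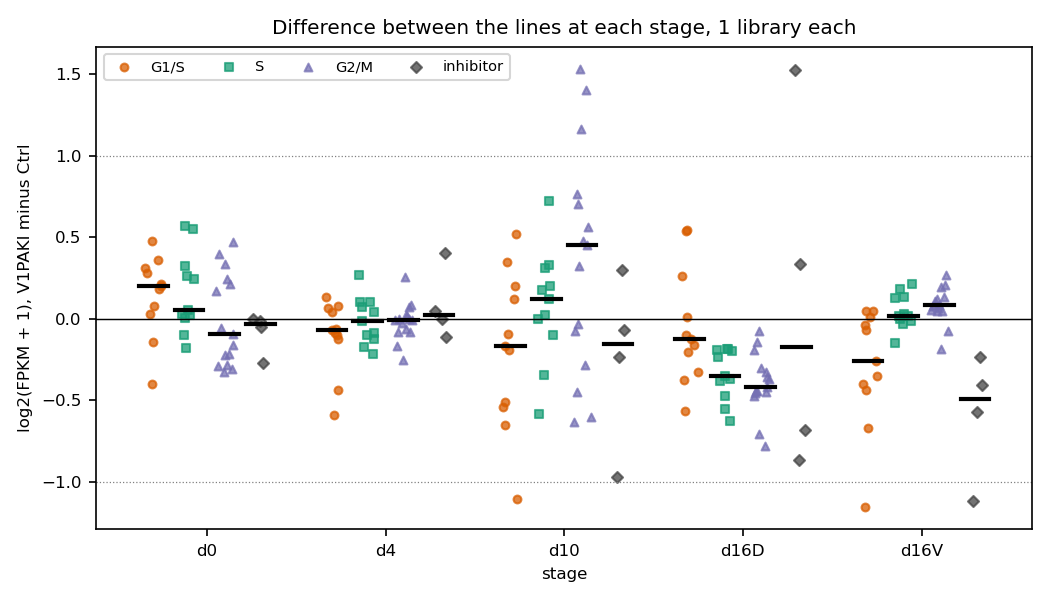
Difference V1PAKI minus Ctrl on the log2(FPKM + 1) scale for each member at each stage, by group; black bars are group medians, dotted lines mark 1 and -1, and each point compares 1 library with 1 library. Points are tight at d4, spread widely at d10 (CENPF at 1.53, CCND3 at -1.11), and all S and G2/M points lie below 0 at d16D.

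At d10, 3 members of the mitotic machinery were higher in V1PAKI and 1 D-type cyclin was lower. CENPF, a kinetochore protein, stood at 37.7 FPKM against 12.4 in Ctrl, TOP2A, which untangles sister chromosomes, at 125 against 46.7, and KIF11, the spindle kinesin, at 31.7 against 13.6, while CCND3 stood at 2.14 against 5.76. Over all genes 3.78% were that much higher and 7.45% that much lower. The G2/M group divided: CDK1, BUB1 and CCNA2 were also higher (0.76, 0.71 and 0.56), while CDC20 (49.6 against 75.7 FPKM), AURKB (21.8 against 34.4) and PLK1 (22.1 against 30.5) were lower. This division followed base composition. Over the 40 tested members the difference correlated with the GC content of the longest annotated transcript at Pearson r = -0.807 and Spearman rho = -0.864 (a description over genes that share the same 2 libraries), and over 15490 genes at r = -0.645. Of the 20 members of lower GC content, 17 were higher in V1PAKI (median 0.40), and of the 20 of higher GC content 4 were (median -0.32). At d0, d4, d16D and d16V the same r over members was 0.524, 0.161, 0.205 and 0.0585. With a trend on GC content and length removed from each library, 0 members differed by 1 or more at d10, CENPF was left at 0.99 and TOP2A at 0.83, and the G2/M median went from 0.46 to 0.14. Mesenchyme and trophoblast sums also differed between these libraries (821 and 489 FPKM in Ctrl, 213 and 137 in V1PAKI); whether either moved the members was not tested.

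**Figure D5:**
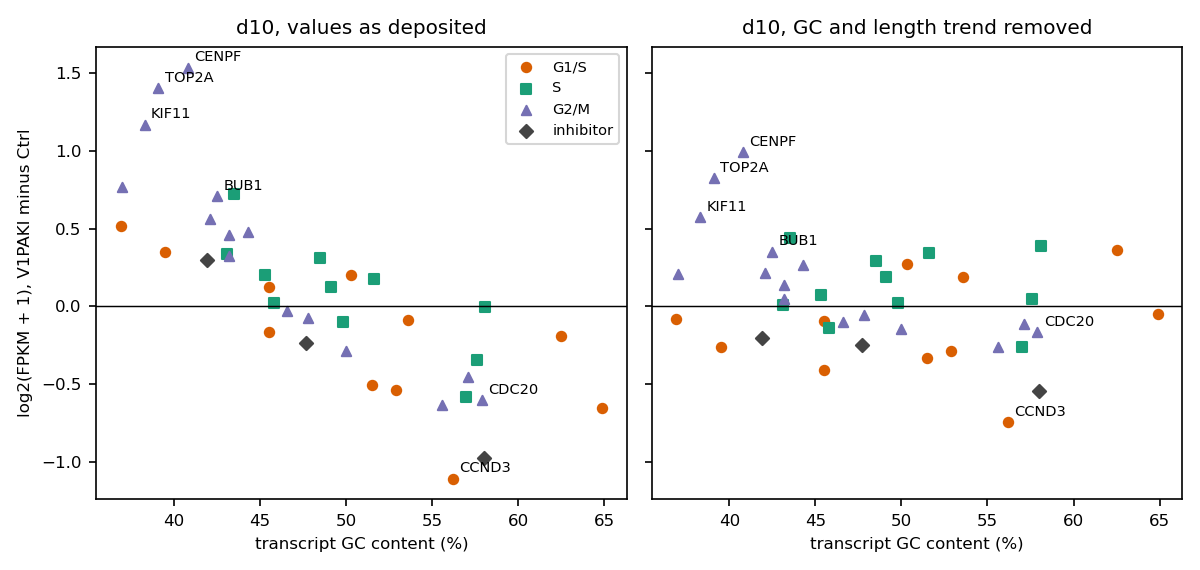
Difference V1PAKI minus Ctrl at d10 on the log2(FPKM + 1) scale against transcript GC content for the 40 tested members, as deposited (left) and with a GC and length trend removed (right). On the left the points fall from CENPF, TOP2A and KIF11 at low GC content to CCND3 and CDC20 at high GC content (r = -0.807), and on the right the slope is mostly gone.

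At d16D replication and mitosis genes were lower in V1PAKI. All 11 S and all 15 G2/M members were below Ctrl, with medians of -0.35 and -0.42, beside -0.10 over all genes, and so were all 28 other G2/M genes (median -0.43). Of 26 other S phase genes 22 were lower and 4 higher (median -0.23). The count of S and G2/M members above 0 stayed at 0 with the GC and length trend removed and under TPM, and was 1 under median-of-ratios scaling. The differences were modest, from -0.07 for AURKA (13.7 against 14.4 FPKM) to -0.78 for TOP2A (54.5 against 94.0), and no S or G2/M member reached 1. V1PAKI d16D was the lowest of the 10 libraries for 11 of 15 G2/M members and 6 of 11 S members, and for 11.0% of all tested genes. The G1/S group lay near all genes, with 7 of 11 lower and 4 higher (median -0.12, beside -0.10). Among the 4 were CCND3 (4.19 against 2.56 FPKM) and CDK6 (7.36 against 4.76), and among the 7 was CDK2 (14.7 against 22.2). CDKN1A was the 1 member past 1, at 17.5 against 5.40 FPKM (1.53), while CDKN1B went the other way, at 18.8 against 30.8 (-0.68); 5.5% of all genes were that much higher and 3.46% that much lower. The same library held 1138 against 189 FPKM of mesenchyme genes, 2744 against 486 of endoderm and liver genes and 365 against 757 of neural progenitor genes, and the genotype and this make-up cannot be told apart with 1 library.

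At d16V 8 of 11 G1/S members were lower in V1PAKI (median -0.26, beside -0.07 over all genes), among them CCND1 at 45.2 against 72.4 FPKM. The S and G2/M medians were 0.02 and 0.08, with 13 of 15 G2/M members above 0. Of the G1/S members, 6 of 11 were lower under TPM (median -0.19) and under median-of-ratios scaling (median -0.15). With the GC and length trend removed 8 of 11 were. The 2 members past 1 were lower in V1PAKI: CDK6 at 3.08 against 8.10 FPKM and CDKN1A at 5.70 against 13.5, where 2.49% of all genes were that much lower and 0.412% that much higher. In this arm the sums of mesenchyme genes (17.7 against 309 FPKM), endoderm and liver genes (23.0 against 297) and trophoblast and amnion genes (11.0 against 61.4) were lower in V1PAKI, and the neural progenitor sums were near each other (783 and 734). All 4 members of the inhibitor group were lower in V1PAKI, with CDKN1B at 22.1 against 26.1 FPKM, MDM2 at 3.94 against 5.55 and CDKN2C at 0.28 against 0.91.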

How the data were processed

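Per the submitters' processing notes, the authors used cutadapt (version 1.18), HISAT2 (version 2.1.0) and Cufflinks on GRCh38, and deposited FPKM per gene symbol for the 10 libraries; annotation, filters and strand setting: not given in the sources used here. Depth is unknown, so no counting intervals could be given. From these values log2(FPKM + 1) was computed (pseudocount 1). Genes reaching 1 FPKM in 2 or more libraries (15779) entered a fit in limma 3.58.1 (R 4.3.3; stage and genotype as terms, intensity trend, 4 residual degrees of freedom, 7.77 after moderation), two-sided, with Benjamini-Hochberg adjustment over all of them. P-values measure the spread between lines and stages, not between repeated cultures, and both day 16 libraries of each line could stem from 1 culture until day 10. Single stages were compared without a test, over genes reaching 1 FPKM in 1 of the lines. The script was tested on simulated data. GC content, length and exon overlaps came from GENCODE v29, and promoter sequences from RefSeq (GRCh38.p14). Every member is accounted for. Given in every library were the inhibitor group, D-type cyclins and called members; from other lists at most 4 called genes were named, by size of change. The members and lists were chosen with earlier results of these data known. Alternatives were another pseudocount (0.1), no filter or one at 5 FPKM, TPM, median-of-ratios scaling, no intensity trend, no genotype term, averaged day 16 arms and each library left out; removing a GC and length trend, and averaging the arms for day 16 against d0, were added after seeing the data.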

Additional observations from a re-analysis of the deposited data

Results flagged for a closer look

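CDKN1A moved in opposite directions in the lines from d10 to d16D. The change was -1.30 on the log2 scale in Ctrl (14.7 to 5.40 FPKM) and 1.20 in V1PAKI (7.02 to 17.5 FPKM), a difference of 2.50. With 1 library per line and stage the difference was not tested. The summed mesenchyme genes moved the same way, from 821 to 189 FPKM in Ctrl and from 213 to 1138 FPKM in V1PAKI, and their part in the CDKN1A change was not tested.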

How the results depend on the processing

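For d0 to day 16 the count of 13 called members became 8 without a filter on low values, 8 with both day 16 arms averaged and 18 with the GC and length trend removed, and ran from 2 (without Ctrl d0) to 16 (without Ctrl d10) when single libraries were left out; it was 7 without Ctrl d16V or V1PAKI d0, and 8 without Ctrl d4, V1PAKI d4 or V1PAKI d16V. CDC6 kept its call in all 19 alternatives. MCM3, BUB1, BUB1B and CDKN1B lost it only without Ctrl d0, AURKA only without V1PAKI d0, and CCND1 without either d0 library, while CCNB1, MCM4, MCM6, CCNE1, CDK2 and TYMS lost it under 6 to 12 of the 19. The d4 call of CCND2 (count 1) became 0 without a filter and ran from 0 to 1 when single libraries were left out, being lost without either d0, d4 or d16V library. From d4 to d10 the count of 0 became 1 under TPM, under median-of-ratios scaling and with no genotype term, and from d10 to d16D it became 1 with no genotype term. Members past 1 between the lines went from 4 to 0 at d10 with the GC and length trend removed. A pseudocount of 0.1 instead brought CDKN1A (7.02 FPKM in V1PAKI against 14.7 in Ctrl) and CCNE2 (1.23 against 0.55) past 1 at d10 too. At d16D the count went from 1 to 2 with a pseudocount of 0.1 and under TPM. No called member reversed its direction; the causes of these shifts were not tested. No paired analysis was possible because each group holds a single library, so no replicate numbers are shared beyond the first; the fit already matches libraries by line and by stage, and the setting with no genotype term is the one without the match by line. Unknown depth limits the low genes, CDKN2C and CCNE2, most.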
